A study of Rattus norvegicus with 32 samples.

Results

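The interleukin-1 (IL-1) family was followed here through 10 genes measured in the left ventricle of septic rats: 4 cytokines (Il1a, Il1b, Il18 and Il33), 3 signalling receptors or receptor subunits (Il1r1, Il1rap and Il1rl1), the decoy receptor Il1r2, the receptor antagonist Il1rn and the processing enzyme Casp1. A gene was taken as a member when its symbol was the gene name of a probe that was not a control in either annotation version of the array files. All 10 genes were found among the 21100 gene symbols of the array, on 15 of its 45598 probes, and 13 of these 15 probes were kept after a filter on dim probes. Each gene was reported by its brightest probe, and these 10 probes were well above background on all 16 arrays of each sex.

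Male and female Wistar rats aged 9 to 12 weeks received sham surgery, cecal ligation and puncture (CLP, a surgical model of abdominal sepsis), or CLP plus landiolol, a β1-selective adrenergic blocker that acts for minutes. Each sex had 5 rats in the sham group, 5 in the CLP group and 6 in the CLP plus landiolol group, and each rat gave 1 left ventricle and 1 one-colour array. Landiolol was infused at 0.1 mg/kg/min from 1 h after CLP and saline at 10 ml/kg/h in its place, with a similar infused volume in all groups and no antibiotics, and buprenorphine (0.05 mg/kg) was given to all rats before surgery. Imaging took place at 18 h and was followed by perfusion of the isolated heart, sham hearts included, and the hearts were frozen at 20 h, so the tissue of every group had been perfused outside the body.

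IL-1α and IL-1β are pro-inflammatory cytokines that bind the type 1 receptor encoded by Il1r1, and the accessory protein encoded by Il1rap joins the complex so that it can signal through MyD88 and IRAK kinases. This pathway is restrained at the receptor. The antagonist encoded by Il1rn occupies the type 1 receptor without activating it, and the type 2 receptor encoded by Il1r2 binds IL-1 but lacks the signalling domain. IL-1β and IL-18 are made as inactive precursors that caspase-1 cleaves after assembly of an inflammasome, whereas IL-33 is a nuclear alarmin, released from damaged cells, whose receptor ST2 is encoded by Il1rl1. IL-1β and IL-18 are both known to depress the contraction of heart muscle, and none of these steps of protein cleavage, release or receptor binding is measured by transcript levels.

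The 60-base probes of the transcripts that changed are shown because every statement on them rests on these sequences. They are given 5′ to 3′ as in the array files, whose headers name the rat genome build rn4, and exon or untranslated region is not stated there. The Il18 probe lies at chr8:53943005-53943064 on the plus strand, and the Il1r2 probe at chr9:39316654-39319494 on the plus strand, a span of 2841 bases for 60 bases of probe, so the Il1r2 probe crosses at least 1 intron.
Il18: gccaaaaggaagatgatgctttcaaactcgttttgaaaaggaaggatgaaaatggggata
Il1r2: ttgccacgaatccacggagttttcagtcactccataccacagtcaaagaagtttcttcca

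The Il1rl1 probes limit what can be said about ST2. Il1rl1 had 3 probes. The only one with signal lies at chr9:39626701-39626760 and was designed on a predicted transcript variant (X4), whereas the probe of transcript variant 1 (chr9:39617225-39617284) was well above background on 2 male arrays and 1 female array, and that of transcript variant 2 (chr9:39619275-39620742) on 1 male and 0 female arrays. A stretch of the bright probe, bases 30 to 59, is set beside the probe of variant 2 to show how they differ. The capitals mark the 16-base run of this probe most often shared, one (bases 37 to 52) that is also found, on either strand, in 5 of the 33469 promoters of the RefSeq table (assembly GRCr8), or 0.0149%.
Il1rl1 variant X4, bases 30 to 59: tccagagAAACCCTGTCTCAAAAaatgagg
Il1rl1 variant 2: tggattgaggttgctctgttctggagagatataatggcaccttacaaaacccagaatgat
Any 16-base run of the bright probe was found in 16 of these promoters, against 0 to 3 for each of the other 14 probes of the members. No 16-base run of the bright probe was shared with another probe of the array, and the Il18 probe shared one with 1 other probe. Exact runs in promoters and array probes do not count the transcripts that a probe can bind. Whether the bright probe also binds other transcripts was not tested. Its values below are those of that probe and not of the receptor as a whole, whose probes of variants 1 and 2 had little signal.

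One array, female sham replicate 1, stood far below its group for Il1a, Il1b and Il1rn, and the female CLP vs sham differences of these genes are given with and without it. The number of spots well above background ranged from 34920 to 43155 in males and from 36151 to 38705 in females, and no spot was saturated. Sex could not be told apart from the slide, because each of the 4 slides held arrays of a single sex, but each treatment was present on both slides of a sex. All 8 cardiomyocyte markers (Myh6, Tnnt2, Tnni3, Actn2, Ryr2, Myl2, Myl3 and Ttn) were well above background on every array. Levels below are log2 normalised signal, each sex normalised separately, so levels of males and females, or of different probes, are not compared. In females, the 5 sham arrays all lay in the upper row of their slides and the 6 CLP plus landiolol arrays all in the lower row, so this comparison could not be made within a row.

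Of the 10 genes, Il18 and Il1r2 were up-regulated in the CLP group of both sexes, and no member was down-regulated. Changes are given as log2 differences ± SE from a linear model with moderated tests (limma), with p-values adjusted by the Benjamini-Hochberg method over all probes kept and an FDR of 1%. The 2 of 10 genes called in males compare with 7.81% of all 25864 probes, and the 2 of 10 in females with 3.63% of 25394. Higher calls alone were 3.87% of all probes in males and 1.82% in females, and lower calls 3.94% and 1.82%. The median change of the 10 genes was 0.25 in males and 0.29 in females, against 0.01 and -0.01 over all probes.

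Il18, the cytokine known for driving interferon-γ production, was about 2-fold higher after CLP. In males, the 5 sham arrays had log2 levels of 7.84, 7.67, 8.01, 7.23 and 7.64, and the 5 CLP arrays 8.89, 8.72, 8.96, 8.60 and 9.12. In females, the sham levels were 8.12, 8.02, 8.29, 8.11 and 8.16, and the CLP levels were 9.64, 9.27, 9.06, 8.61 and 9.11. Every CLP array lay above every sham array of its sex, and the female sham arrays were the tightest group (SD 0.10). Groups did not overlap in this comparison for 12.3% of all probes in males and 8.32% in females, and among the members this was seen for Il18 and Il1r2 alone. The difference was 1.18 ± 0.15 in males (2.26-fold, limma adjusted p = 9.38e-05) and 0.997 ± 0.16 in females (2.00-fold, limma adjusted p = 0.00133). Within the separate slides the rise of Il18 was 1.10 and 1.23 in males and 0.75 and 1.20 in females.

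Il1r2, the decoy that captures IL-1 without signalling, had the largest change of the 10 genes in both sexes. In males, the sham levels were 5.70, 6.35, 6.10, 5.52 and 5.82, and the CLP levels were 6.92, 7.89, 8.49, 8.41 and 7.83. In females, they were 5.62, 6.43, 6.01, 5.39 and 5.31 in the sham group and 8.19, 7.42, 8.60, 8.93 and 7.37 in the CLP group. The groups did not overlap in either sex, with the lowest male CLP array (6.92) nearest to the sham range. The rise was 2.01 ± 0.29 in males (4.02-fold, limma adjusted p = 0.000234) and 2.35 ± 0.31 in females (5.09-fold, limma adjusted p = 0.000284), and within the slides it was 1.74 and 2.30 in males and 2.52 and 2.14 in females.

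**Figure D1:**
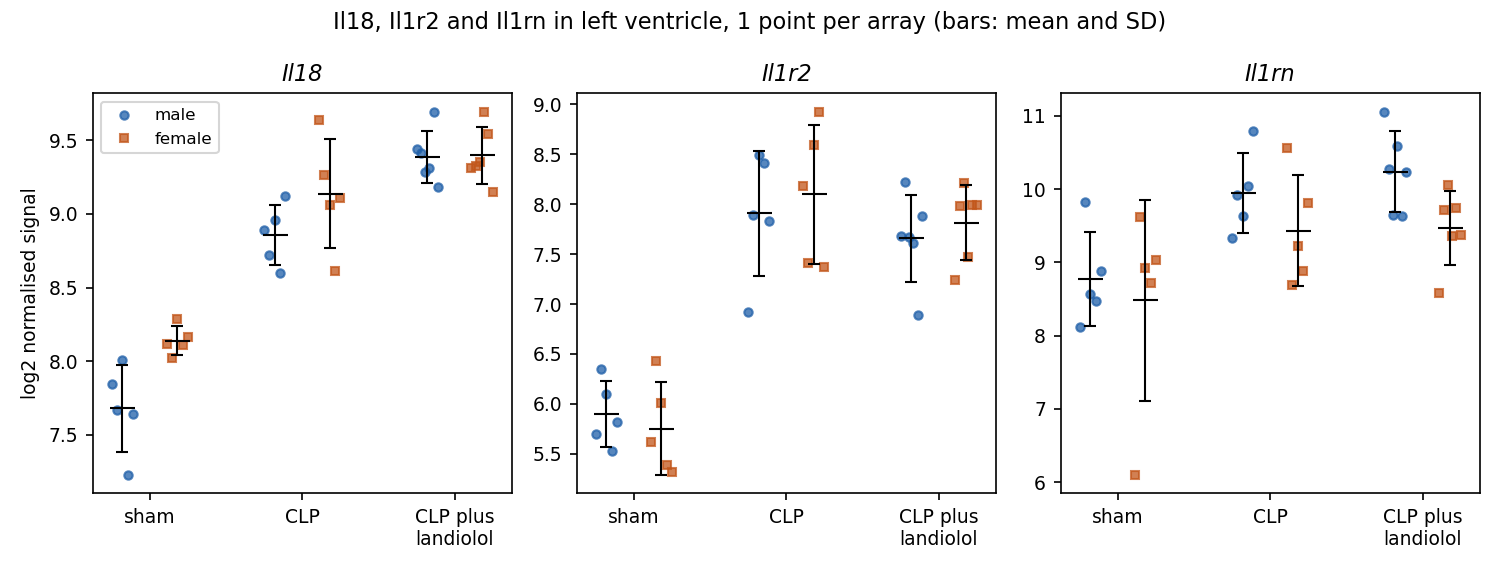
Log2 normalised signal of Il18, Il1r2 and Il1rn in left ventricle, 1 point per array (males as circles, females as squares; 5 sham, 5 CLP and 6 CLP plus landiolol arrays per sex), with bars for mean and SD. All CLP arrays lie above all sham arrays of the same sex for Il18 and Il1r2, whereas the groups overlap for Il1rn; the sexes were normalised separately.

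The antagonist Il1rn had higher mean levels after CLP but did not pass the FDR. In males, the sham levels were 8.12, 9.82, 8.57, 8.47 and 8.89, and the CLP levels were 9.33, 9.92, 9.64, 10.04 and 10.80. The groups overlapped because of sham replicate 2 (9.82), which lay above 2 of the 5 CLP arrays. The difference was 1.17 ± 0.34 (95% interval 0.44 to 1.90, limma adjusted p = 0.0294). Without that sham array it was 1.43 ± 0.32 and passed the FDR of 1% (limma adjusted p = 0.00818). Of the 16 fits with an array left out, this was the only 1 in which the difference passed. Within the male slides it was 0.66 and 1.78. In females, sham rats had Il1rn levels of 6.10, 9.63, 8.93, 8.72 and 9.04 and CLP rats of 10.56, 8.70, 9.23, 8.88 and 9.81, and the difference was 0.95 ± 0.54 (limma adjusted p = 0.313). The value of 6.10 belonged to sham replicate 1, and without it the female difference was 0.36 ± 0.36 (limma adjusted p = 0.648).

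The agonist cytokines did not pass the FDR in either sex. Il1b, which encodes the main secreted form of IL-1, had male levels of 13.70, 13.39, 12.80, 12.98 and 13.20 in the sham group and of 13.03, 13.29, 12.80, 13.37 and 13.14 in the CLP group. The male groups overlapped almost completely, and the difference was -0.09 ± 0.30, with a 95% interval of -0.72 to 0.54 (limma adjusted p = 0.89). In females, sham levels were 10.11, 13.78, 13.41, 13.32 and 13.31 and CLP levels were 13.91, 12.12, 13.15, 13.71 and 13.42. Here too the groups overlapped, and 1 sham array stood about 3 log2 units below the others. The female difference was 0.47 ± 0.58 (95% interval -0.76 to 1.71, limma adjusted p = 0.693) and became -0.19 ± 0.37 without this array.

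Il1a, whose product acts from the cell surface and on release from damaged cells, had lower mean levels in male CLP rats. The male sham levels were 11.65, 11.73, 10.06, 11.20 and 11.45, and the CLP levels were 10.30, 10.62, 9.35, 10.88 and 10.88. All 5 CLP arrays lay below 4 of the sham arrays, but sham replicate 3 (10.06) lay within the CLP range. The difference was -0.81 ± 0.44 (95% interval -1.74 to 0.12, limma adjusted p = 0.243), and within the slides it was -1.60 and -0.02. In females the difference was 0.28 ± 0.75 (95% interval -1.30 to 1.86, limma adjusted p = 0.877), and -0.44 ± 0.60 without sham replicate 1, the array at 7.78.

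Il33, the alarmin, did not pass the FDR either. It ranged from 8.29 to 8.94 in male sham rats, from 8.51 to 9.40 in male CLP rats, from 8.32 to 8.88 in female sham rats and from 8.24 to 9.16 in female CLP rats. The groups overlapped in both sexes. The difference was 0.39 ± 0.19 in males (95% interval -0.01 to 0.78, limma adjusted p = 0.183) and 0.13 in females (95% interval -0.51 to 0.77).

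The signalling receptors moved less than the decoy. Il1r1 went from a range of 7.06 to 7.94 (median 7.68) in male sham rats to 7.75 to 8.58 (median 8.26) in male CLP rats, with a difference of 0.58 ± 0.19 (limma adjusted p = 0.049), above the FDR of 1%. This value differed between the male slides, 0.10 in one and 1.08 in the other. The probe was designed on a predicted transcript variant (X5). The other 2 probes of Il1r1, at chr9:39462421-39464677 and chr9:39472634-39473165, gave 0.72 ± 0.20 (limma adjusted p = 0.0251) and 0.75 ± 0.51 (limma adjusted p = 0.369) in males, so all 3 probes were higher in the mean and 0 of the 3 passed. In females the 3 probes gave 0.29, 0.30 and 0.44, none of which passed.

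Il1rap, the subunit shared by the IL-1 and IL-33 receptors, differed by 0.11 (95% interval -0.24 to 0.45) in males and by -0.02 (95% interval -0.40 to 0.36) in females. Its second probe, specific to transcript variant 2 and dimmer, differed by 0.20 ± 0.27 and -0.18 ± 0.28. The bright Il1rl1 probe differed by 0.04 (95% interval -0.58 to 0.66) in males and by -0.10 (95% interval -0.79 to 0.60) in females, and its values in the female slides were of opposite sign (-0.65 and 0.42). The intervals of the second Il1rap probe were wider, -0.37 to 0.77 in males and -0.77 to 0.40 in females.

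Within an array, the decoy rose more than the signalling receptor. The log2 signal of Il1r2 minus that of Il1r1 was higher in CLP than in sham rats by 1.43 ± 0.26 in males and by 2.05 ± 0.40 in females, and the groups did not overlap in either sex. Only the brightest Il1r1 probe, that of the predicted variant, was used here. The signal of Il1rn minus that of Il1a was higher by 1.98 ± 0.43 in males, where the groups did not overlap, and by 0.67 ± 0.38 in females, where they did. For Il1rn minus Il1b the values were 1.26 ± 0.40 and 0.48 ± 0.29, with overlapping groups in both sexes. Each value equals the difference between the changes of its 2 genes given above and is not separate evidence. How often the groups of other probe pairs did not overlap was not counted. These are descriptions of unequal change between 2 probes of an array. Their SE is over the arrays of the groups, and no test across all probes was made. They include the low female sham array. Without it, the female values were 2.07 ± 0.46, 0.79 ± 0.38 and 0.55 ± 0.29, in the order given, with the same overlap.

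**Figure D2:**
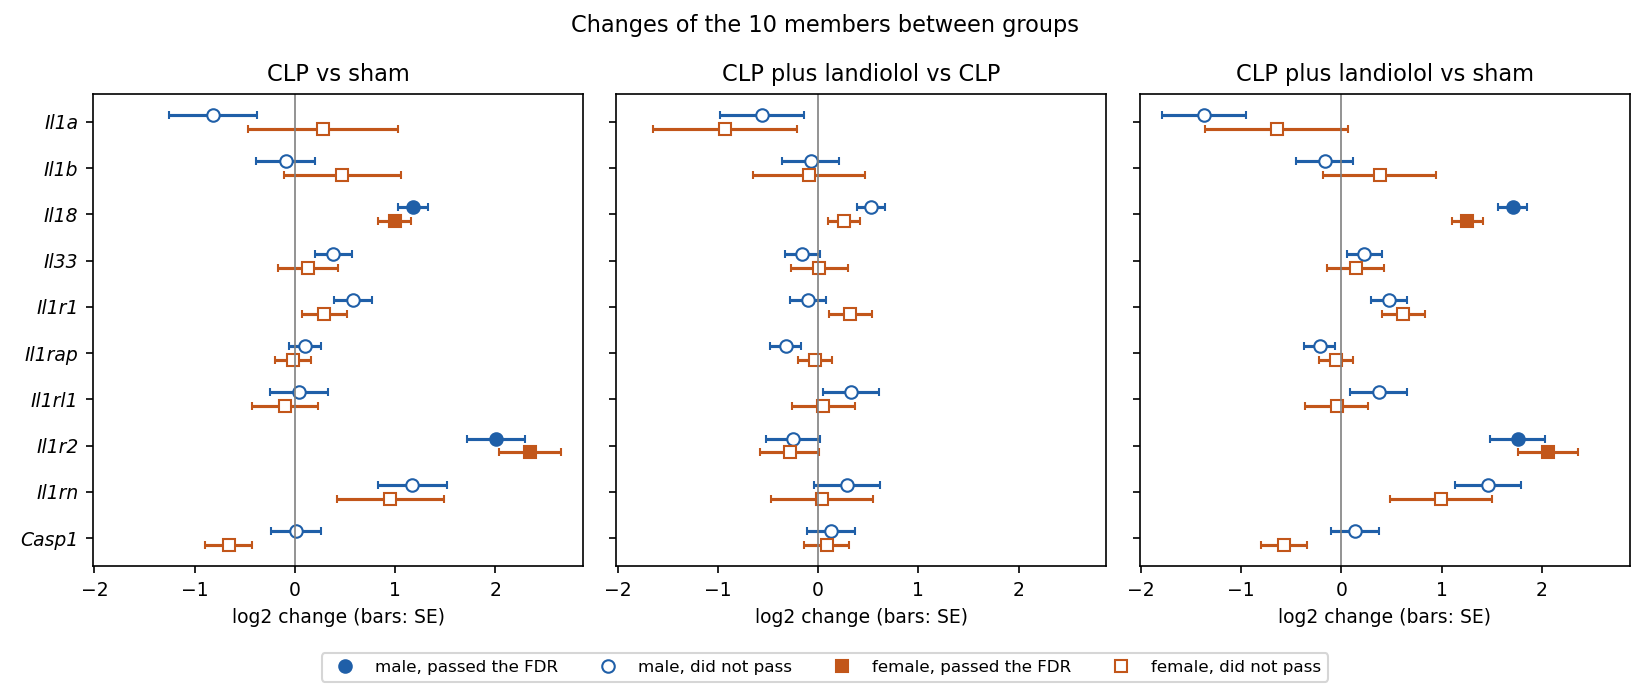
Log2 change of each of the 10 members in the 3 comparisons (CLP vs sham, CLP plus landiolol vs CLP, CLP plus landiolol vs sham), males as circles and females as squares, filled where the gene passed the FDR, with bars for the SE from limma. Il18 and Il1r2 are filled in both comparisons with sham, and no symbol is filled in CLP plus landiolol vs CLP.

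Casp1, which cleaves the precursors of IL-1β and IL-18, passed the FDR in neither sex. The male levels were 9.22, 8.69, 8.29, 8.01 and 8.08 in the sham group and 8.80, 8.45, 8.79, 8.16 and 8.13 in the CLP group, a difference of 0.01 ± 0.25. The female levels were 9.47, 9.36, 9.64, 8.54 and 9.53 in the sham group and 8.42, 8.54, 8.54, 8.22 and 9.51 in the CLP group. In each female group 4 arrays lay close together and 1 lay in the range of the other group. The female difference was -0.66 ± 0.24 (95% interval -1.16 to -0.16, limma adjusted p = 0.0972), and it was -1.17 in the first slide and -0.12 in the second.

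**Figure D3:**
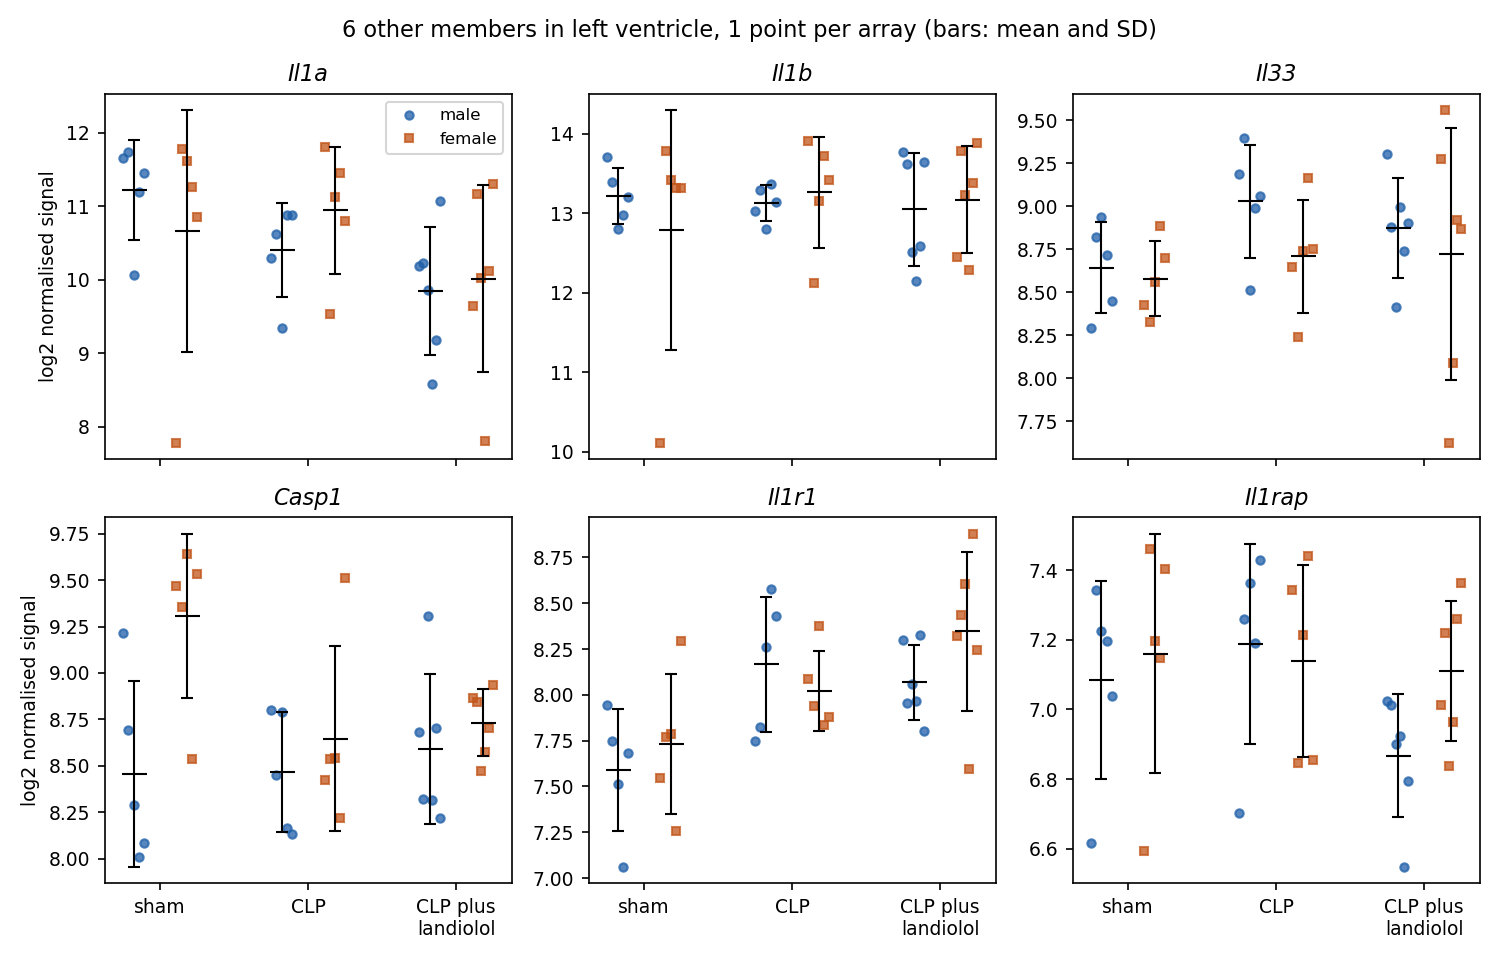
Log2 normalised signal of Il1a, Il1b, Il33, Casp1, Il1r1 and Il1rap, 1 point per array (males as circles, females as squares), with bars for mean and SD. The groups overlap in every panel, and 1 female sham array lies far below the other 4 for Il1a (7.78) and Il1b (10.11); the sexes were normalised separately.

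The comparison of CLP plus landiolol with CLP asked which of these changes the β-blocker altered. None of the 10 genes passed the FDR of 5% in either sex (limma), against 1.56% of all probes in males and 0.0945% in females. At an unadjusted p under 0.05, 1 of the 10 was found in males (Il18) and 0 in females, against 14.8% of all male and 9.34% of all female probes. The 10 genes had a median change of -0.09 in males and 0.03 in females, against -0.01 and 0.03 over all probes.

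Il18 came nearest to a call, and in the direction away from sham. In male CLP plus landiolol rats the levels were 9.44, 9.41, 9.29, 9.31, 9.69 and 9.18. All 6 arrays lay above the highest male CLP array (9.12), which was the case for 1.18% of all male probes. The difference was 0.53 ± 0.14 (95% interval 0.23 to 0.83, limma adjusted p = 0.0789), and it was 0.52 and 0.53 in the separate slides. It passed the FDR of 5% with normexp background correction (0.47 ± 0.11, limma adjusted p = 0.0413), with array weights (0.50 ± 0.14, limma adjusted p = 0.0457) and without male sham replicate 4, which takes part only in the estimate of the spread (limma adjusted p = 0.049). Of all male probes, 1.93% passed with normexp correction and 5.36% with array weights, against 1.56% in the main fit. In females, the treated levels were 9.31, 9.33, 9.35, 9.69, 9.54 and 9.15 and overlapped with the CLP arrays, and the difference was 0.26 ± 0.16 (95% interval -0.07 to 0.59, limma adjusted p = 0.651).

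Il1r2 stayed far above sham under landiolol. The treated males had levels of 7.68, 8.22, 7.67, 7.61, 6.89 and 7.88 and the treated females of 7.24, 7.98, 8.21, 7.47, 7.99 and 8.00. These lay within the CLP range, except for 1 male and 1 female array just below it. The difference from CLP was -0.25 ± 0.27 in males (95% interval -0.83 to 0.33) and -0.28 ± 0.30 in females (95% interval -0.91 to 0.34), so a fall of up to about 0.9 on the log2 scale lies within the intervals. For Il1rn, the treated males ranged from 9.63 to 11.06 (median 10.25) and the treated females from 8.59 to 10.06 (median 9.55), and the differences from CLP were 0.29 (95% interval -0.41 to 0.99) and 0.04 (95% interval -1.05 to 1.13).

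Il1a had lower mean levels with landiolol in both sexes, with a wide spread. The treated males had levels of 10.18, 10.22, 9.85, 8.58, 9.17 and 11.07, and the treated females of 9.65, 11.17, 10.03, 7.80, 10.12 and 11.31. Both groups overlapped with CLP, and the differences were -0.56 ± 0.42 (limma adjusted p = 0.553) and -0.93 ± 0.71 (limma adjusted p = 0.744). Il1b differed by -0.07 (95% interval -0.68 to 0.53) in males and -0.09 (95% interval -1.28 to 1.09) in females, Il33 by -0.16 (95% interval -0.53 to 0.22) and 0.01 (95% interval -0.60 to 0.62), and Casp1 by 0.12 (95% interval -0.38 to 0.63) and 0.08 (95% interval -0.40 to 0.57). Among the receptors, the male Il1rap difference was -0.32 ± 0.15 (limma adjusted p = 0.346), that of Il1r1 was -0.10 in males and 0.32 in females, and that of the Il1rl1 probe was 0.33 and 0.05.

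Set against the same sham rats, the CLP plus landiolol group again had 2 of 10 members called higher and 0 lower in each sex, Il18 and Il1r2, where 4.15% of all male and 5.25% of all female probes were called, 2.4% and 3% of all probes as higher and 1.76% and 2.24% as lower. This comparison shares its sham arrays with CLP vs sham. Il18 was higher by 1.71 ± 0.14 in males (limma adjusted p = 2.77e-06) and by 1.26 ± 0.16 in females (limma adjusted p = 0.000141). Il1r2 was higher by 1.76 ± 0.27 in males (limma adjusted p = 0.000797) and by 2.06 ± 0.30 in females (limma adjusted p = 0.000421). When the slide row was added to the model, the female Il1r2 value was nearly the same with a larger error and did not pass (1.98 ± 0.55, limma adjusted p = 0.184). In that model 0.0788% of all female probes passed in this comparison, against 5.25% without the row. The male Il1rn value lay just above the FDR of 1% (1.46 ± 0.33, limma adjusted p = 0.0101), and the male Il1a value was -1.37 ± 0.42 (limma adjusted p = 0.0501). In males, Il1rn minus Il1a was higher than in sham rats by 2.83 ± 0.53 with groups that did not overlap, and in females by 1.64 ± 0.55 with groups that did (1.76 ± 0.55 without sham replicate 1). These values too are differences between the changes of the 2 genes, without a test.

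The responses of the sexes were compared through an interaction term, fitted to all 32 arrays after joint normalisation. Of the 24768 probes kept in both sexes, 0 passed the FDR of 5% in any of the 3 comparisons (limma, 0% called), while 3.5% had an unadjusted p under 0.05 in CLP vs sham, 4.91% in CLP plus landiolol vs CLP and 6.32% in CLP plus landiolol vs sham. The male response of Il18 to CLP exceeded the female response by 0.17 ± 0.22, and against sham the CLP plus landiolol group gave a male excess of 0.43 ± 0.21 (limma adjusted p = 0.775). The Casp1 response was 0.68 ± 0.35 higher in males than in females after CLP and 0.71 ± 0.34 higher with landiolol, both relative to sham (limma adjusted p = 0.771 for the latter). These 2 values with landiolol were the only ones of the members' reported probes with an unadjusted p under 0.05, as for 6.32% of all probes. For Il1r2 the male minus female value was -0.34 ± 0.43 after CLP. A difference between the sexes was therefore not shown for any member, also where only 1 sex came near a threshold.

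The wider pathway was read through 4 lists. Of 16 other genes of the family, 12 were on the array and 4 were bright enough to be tested. Among these was Il18bp, which encodes the secreted protein that neutralises IL-18. It was lower in female CLP plus landiolol than in female sham rats (-1.94 ± 0.33, limma adjusted p = 0.00128), 1 of 4 where 5.25% of all probes were called. This is the comparison that could not be made within a slide row, and no value with the row as a term is given for Il18bp. With the row in the model, 0.0788% of all female probes passed there. For Il18bp the female CLP vs sham value was -1.26 ± 0.34 (limma adjusted p = 0.0301), above the FDR of 1%. In males it differed by 0.32 ± 0.31 between CLP and sham rats and by -1.11 ± 0.30 between CLP plus landiolol and CLP rats (limma adjusted p = 0.0774), and neither value passed.

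Of the receptor-proximal signalling genes, 2 of 13 tested were higher in male CLP rats, against 3.87% of all probes called higher. These were Irak3 (1.27 ± 0.25, limma adjusted p = 0.00259), which encodes a brake on IL-1 and Toll-like receptor signalling, and Myd88 (0.87 ± 0.20, limma adjusted p = 0.00647), which encodes the adaptor of these receptors. The median change of this list was 0.02 in males. In females, Irak3 differed by 0.85 ± 0.25 (limma adjusted p = 0.0471) and Myd88 by 0.74 ± 0.23 (limma adjusted p = 0.061), and the 1 of 14 genes called (3.63% of all probes) was Traf6, the ubiquitin ligase downstream of IRAK, which was lower (-0.84 ± 0.17, limma adjusted p = 0.00585). In the comparison of CLP plus landiolol with sham, Irak3 was higher in males (1.47 ± 0.24, limma adjusted p = 0.00109) and 0 of 14 genes passed in females. In CLP plus landiolol vs CLP, 0 of these genes passed in either sex. At an unadjusted limma p under 0.05, CLP vs sham gave 4 of 13 genes in males and 6 of 14 in females, against 28.8% and 23.1% of all probes.

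The inflammasome list (Nlrp3, Pycard, Gsdmd and other genes that activate or follow caspase-1) had 0 genes called among 9 tested in males and 8 in females, in each of the 3 comparisons. The median change of this list in CLP vs sham was -0.03 in males and -0.49 in females. The IL-1 response genes (Il6, Cxcl1, Cxcl2, Ccl2, Ptgs2, Icam1 and other targets of IL-1 signalling) likewise had 0 called among 11 tested in males and 12 in females, with medians of 0.12 and -0.04. At an unadjusted limma p under 0.05, CLP vs sham gave 2 inflammasome genes in males and 4 in females (Casp4, Gsdmd, Nek7 and Nlrp1a), and 2 and 1 response genes, where 28.8% of all male and 23.1% of all female probes were under that p. The shares of these genes therefore lay at or below that of all probes, except for the 4 of 8 female inflammasome genes. The other 2 comparisons gave 0 to 3 genes per list and sex. The counts of 3 were both female, in CLP plus landiolol vs sham, 3 of 8 inflammasome and 3 of 12 response genes. Of all probes, 24.2% in males and 26.7% in females were under that p there, and 14.8% and 9.34% in CLP plus landiolol vs CLP.

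Some markers of myeloid cells rose in the same comparison as Il18 and Il1r2. The median change of each other marker list was negative in both sexes, from -0.01 for female cardiomyocyte markers to -0.87 for male fibroblast markers. Their summed unlogged signal went either way. For endothelial markers the median sum went from 49815 to 55753 in males and from 40422 to 51450 in females. For female fibroblast markers it went from 47763 to 65661, all with overlapping groups. It was lower after CLP for the lymphocyte and NK cell, mesothelial and atrial markers in both sexes. In a whole ventricle, more cells of a type and more RNA per cell cannot be told apart. Of 9 monocyte and macrophage markers, 4 were higher in male CLP than sham rats (Lyz2, Adgre1, Itgam and Cd68) and 3 in females (Adgre1, Lyz2 and Cd68), and 0 were lower, against 3.87% and 1.82% of all probes called higher. Their summed normalised signal ranged from 16948 to 23326 in male sham, 37426 to 53106 in male CLP and 28947 to 53000 in male CLP plus landiolol rats, and from 21009 to 27706, 37354 to 57396 and 37481 to 58329 in the female groups. The sum is of unlogged signal, so its brightest gene, Lyz2, weighs most (mean log2 level 14.33 in males and 14.57 in females). The next brightest, C1qa, had mean levels of 12.46 and 12.23. Adgre1, which encodes the macrophage surface protein F4/80, had mean log2 levels of 7.96 and 10.75 in male sham and CLP rats and of 7.35 and 10.14 in the females. Csf1r, another of the 9 markers, did not rise, with mean levels of 7.84 and 7.77 in the males and of 7.69 and 7.67 in the females.

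Neutrophil markers were far dimmer. Of 8 markers, S100a8 and S100a9 were kept, whereas Mmp8, Ngp and Elane were well above background on 0 arrays, Mpo on 1 male array, Csf3r on 3 male and 1 female arrays and Cxcr2 on 3 male and 5 female arrays. S100a8, which encodes an abundant calcium-binding protein of neutrophils and monocytes, was well above background on 0 of 5 male sham arrays and on all male CLP arrays, at least 11.3-fold higher in the latter. The summed signal of the 8 genes ranged from 55 to 73 in male sham, 147 to 810 in male CLP and 329 to 880 in male CLP plus landiolol rats, and from 50 to 88, 188 to 464 and 190 to 1172 in the female groups. In the septic groups S100a8 and S100a9 weigh most in this sum, and the sham sums are made up mostly of signal near background.

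Of 7 lymphocyte and NK cell markers, 3 were bright enough to be tested, and in CLP vs sham their median change was -0.86 in males and -0.66 in females. The calls in this paragraph compare with 3.94% of all male probes called lower and 3.87% called higher, and with 1.82% of all female probes in each direction. Gzmb, which encodes the cytotoxic protease granzyme B, was lower in females (-1.84 ± 0.36, limma adjusted p = 0.0042) and differed by -1.49 ± 0.43 in males (limma adjusted p = 0.0266). Of 5 mast cell markers tested, the receptor gene Kit was higher in males (0.78 ± 0.18, limma adjusted p = 0.00728) and 0 passed in females, with list medians of -0.29 and -0.84. Among 6 fibroblast markers in male CLP rats, the matrix genes Col1a1 (-2.11 ± 0.38), Col1a2 (-1.34 ± 0.28) and Lum (-1.89 ± 0.45) were lower and the transcription factor gene Tcf21 (1.25 ± 0.26) was higher, with a list median of -0.87, and in females 0 of the 6 passed, with a median of -0.57. The cardiomyocyte, atrial, endothelial and mesothelial markers had no call in CLP vs sham in either sex.

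**Figure D4:**
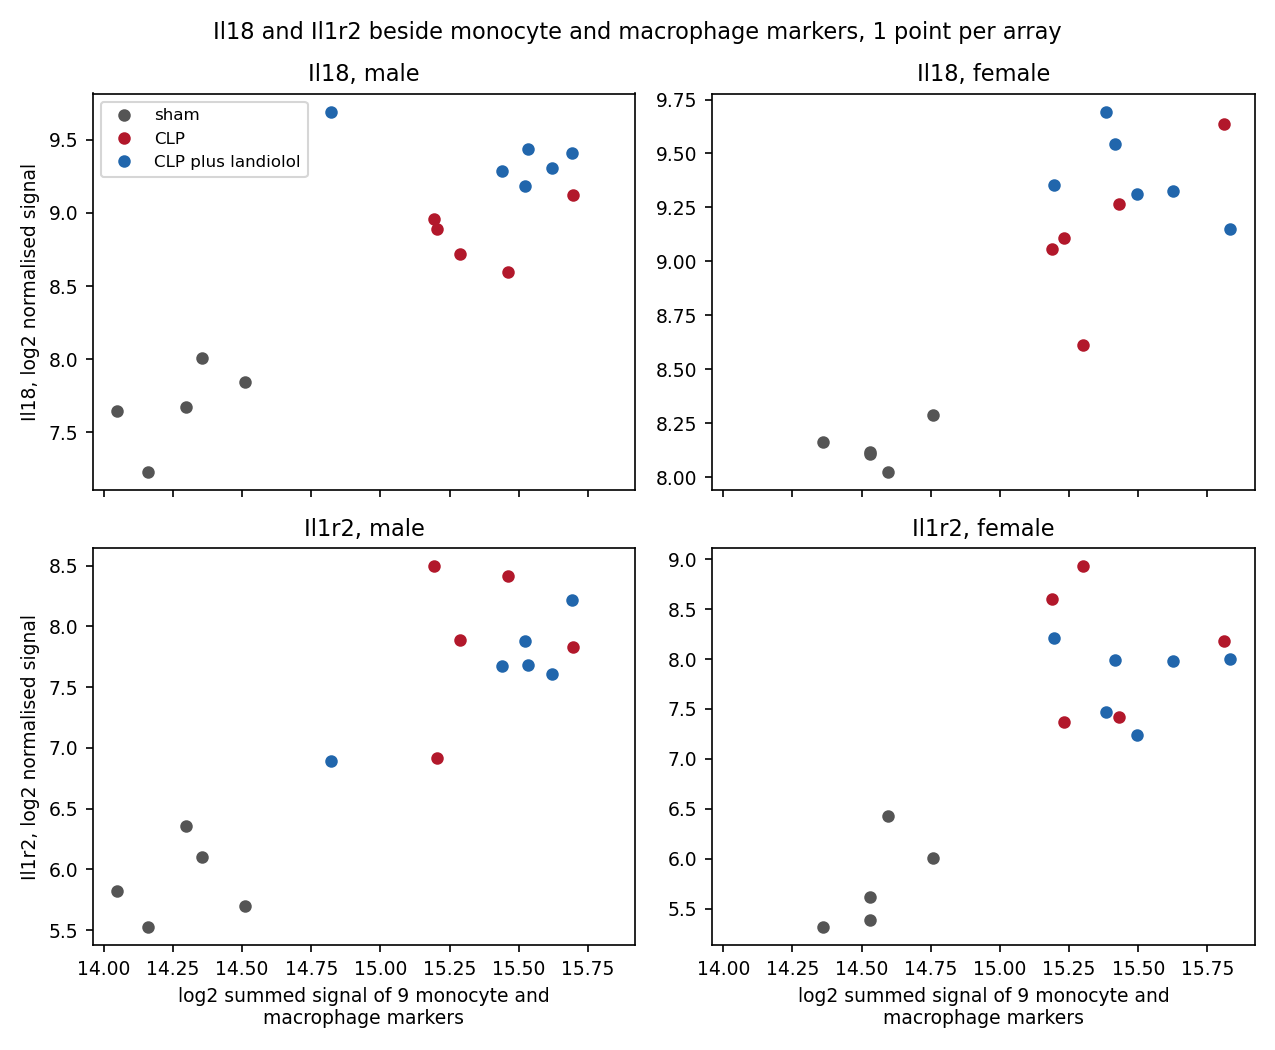
Log2 normalised signal of Il18 (top) and Il1r2 (bottom) against the log2 summed signal of 9 monocyte and macrophage markers, 1 point per array, males left and females right. The sum is of unlogged signal, in which Lyz2 weighs most. The sham arrays lie at the lower left in each panel, apart from all arrays of the CLP and CLP plus landiolol groups, and the septic groups with and without landiolol share the same range of the marker sum, except 1 treated male array that lies lower (28947).

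Across the 16 arrays of a sex, Pearson's r of the macrophage sum was 0.85 in males and 0.88 in females with Il18, 0.90 and 0.82 with Il1r2, and 0.81 and 0.49 with Il1rn. With the neutrophil sum, in which S100a8 and S100a9 weigh most, it was 0.91 and 0.69 for Il18 and 0.80 and 0.84 for Il1r2. With the lymphocyte and NK cell sum it was -0.31 and -0.48 for Il18 and -0.45 and -0.86 for Il1r2. With the endothelial sum it was 0.59 and 0.61 for Il18 and 0.19 and 0.37 for Il1r2. With the fibroblast sum it was -0.15 and 0.33 for Il18 and 0.20 and 0.58 for Il1r2. Without female sham replicate 1 the female r of Il1rn with the macrophage sum was 0.36. These points share the treatment groups, which set them apart on both axes, and the values are descriptions. The part of immune or stromal cells in the changes of Il18 and Il1r2 was not tested.

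The genes whose pattern across arrays was most like that of each member were taken by the mean of the male and female Pearson correlations over 16 arrays each, among 13643 genes with 1 probe per gene. For Il18 these were Ptpn6 (0.97 in males, 0.97 in females), Lst1 (0.98 and 0.92) and Rac2 (0.94 and 0.96), all of which are expressed mainly in blood cells. For Il1r2 they were Hsd11b1 (0.97 and 0.92), which encodes the enzyme that regenerates active glucocorticoid, Ces1c (0.92 and 0.91) and Nudt21 (0.91 and 0.91). The arrays span the treatment groups, so a shared response to treatment can raise these values, which are descriptions here and below. The cells in which these genes changed were not tested.

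The agonists had other neighbours. Il1b was most like Cxcl3 (0.88 and 0.89), Cxcl2 (0.88 and 0.83) and Tlr2 (0.80 and 0.80), of which the first pair encode chemokines that attract neutrophils. Il1a was most like the chemokine gene Ccl7 (0.80 and 0.92), Clec4e (0.84 and 0.87) and Fosl1 (0.79 and 0.91), and Il1rn was most like Ebi3 (0.88 and 0.87), Nopchap1 (0.86 and 0.85) and Timp1 (0.79 and 0.84). Casp1 was most like Sp140 (0.84 and 0.86) and 2 genes of the proteasome system, Psme2 (0.78 and 0.86) and Psmb10 (0.74 and 0.89). Il1r1 was most like Rin2 (0.82 and 0.72), Ifitm1 (0.83 and 0.71) and Jak2 (0.84 and 0.70), and Il1rap was most like Pgm3 (0.83 and 0.60), Sertad1 (0.79 and 0.63) and Il6 (0.79 and 0.63). The likeness was lowest for Il33, with Klhl8 (0.63 and 0.57), Sec11a (0.62 and 0.57) and Ptges (0.76 and 0.43). The bright Il1rl1 probe was most like C10h1orf35 (0.93 and 0.90), Cpn1 (0.92 and 0.90) and LOC102549418 (0.92 and 0.89). The low female sham array takes part in these female values. Without it, the female r fell most for Il1b with Tlr2 (0.51) and for Il1rn with Ebi3 (0.60) and Timp1 (0.55), while Il1a kept 0.87 to 0.88 with its 3 genes.

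That array, female sham replicate 1, stood apart for a set of the members. Its levels of 7.78 for Il1a, 10.11 for Il1b and 6.10 for Il1rn compare with lowest values of 10.85, 13.31 and 8.72 in the other 4 sham arrays of the sex. It did not stand apart for Il18, where it lay at 8.12 within a range of 8.02 to 8.29, or for Il1r2 and Casp1. Without it, Il18 and Il1r2 kept their calls in female CLP vs sham (0.99 ± 0.18, limma adjusted p = 0.00433, and 2.31 ± 0.34, limma adjusted p = 0.00111).

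**Figure D5:**
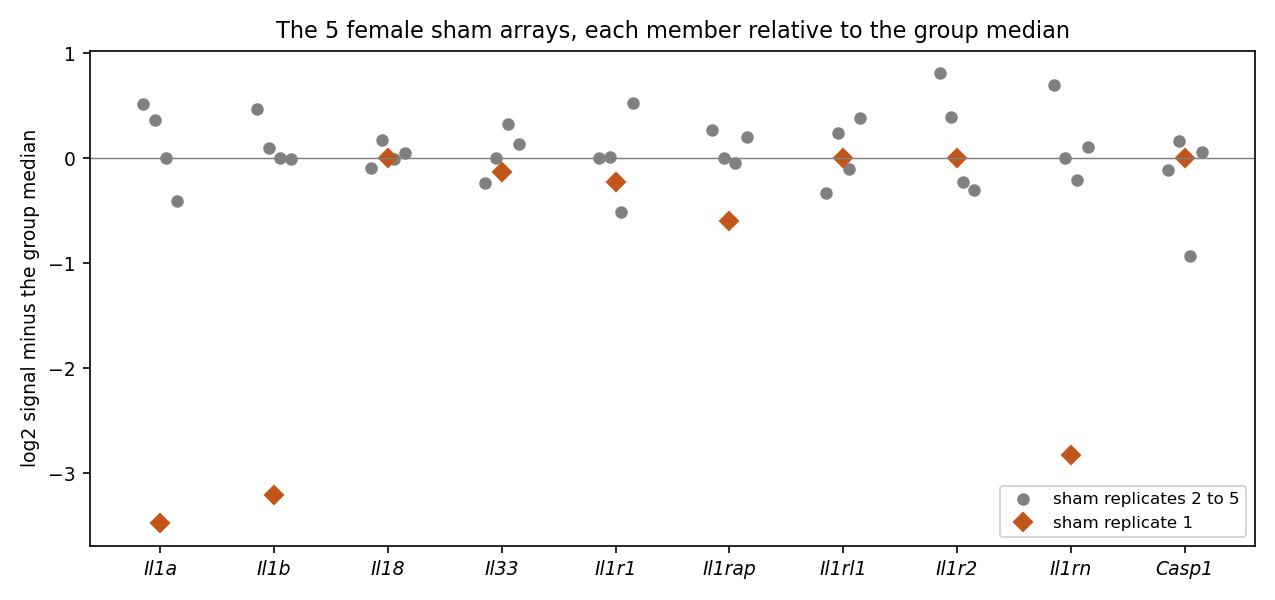
Log2 signal of each of the 10 members in the 5 female sham arrays, as the difference from the group median, with sham replicate 1 as a diamond and replicates 2 to 5 as grey points. Replicate 1 lies about 3 log2 units below the median for Il1a, Il1b and Il1rn and within 1 unit of it for the other 7 members.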

How the data were processed

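Cy3-labelled RNA of 32 left ventricles was hybridised to SurePrint G3 Rat 8x60K arrays. The authors deposited the intensity of each spot as scanned with Agilent Feature Extraction 10.5 (processed signal, background-subtracted by the software), and a log2 table of quantile-normalised signal (lowest Spearman correlation with the scanner values of the same array 0.9949), used as an alternative, where an offset before the log2 is unknown. Groups came from the labels, and each array was a separate rat.

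From the processed intensities, outlier spots were left out (213 missing probe values), log2 was taken, spots of the same probe were averaged, and quantile normalisation was run within each sex (16 arrays). A probe was kept if 1 group or more had it well above background on 80% of its arrays, 25864 in males and 25394 in females. Fits used limma 3.58.1 (lmFit, eBayes) in R 4.3.3 with the package data.table (version 1.17.8), all 3 groups of a sex together, and Benjamini-Hochberg adjustment over all kept probes (FDR 1% against sham, 5% for the other comparisons). The SAM test of the study was not run. The scripts were tested on simulated data.

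Every member was named by its brightest probe, list genes where they passed the FDR, and the 3 most similar genes per member. The members, lists and tests were chosen with earlier results of these data known. The number of arrays limits precision. Alternatives were background correction, scaling, filters, variance trend, array weights, slide or row as a term, the 2 compared groups alone, both sexes normalised together, the authors' values, another FDR and leaving out each array.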

Additional observations from a re-analysis of the deposited data

Results flagged for a closer look

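A gap test (Dixon, 95% critical value) of the lowest and highest array marked 5 of the 60 groups formed by 10 members, 3 treatments and both sexes, where chance alone would give about 3. The marked arrays were female sham replicate 1 for Il1a (log2 level 7.783), Il1b (10.1136) and Il1rn (6.0982), female sham replicate 4 for Casp1 (8.536, the next array being at 9.36) and female CLP replicate 5 for Casp1 (9.5107, the next being at 8.54).

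The first 3 belong to 1 array, in which other IL-1 response genes were low as well. Of 12 such genes, 9 had their lowest value of the 5 female sham arrays there and 4 were marked as low: the chemokine genes Ccl2 (12.45, against 15.36 to 15.85 in the other sham arrays) and Cxcl1 (14.54, against 16.52 to 16.82), Ptgs2, which encodes cyclooxygenase-2 (7.29, against 9.80 to 10.83), and Nfkbiz (9.10, against 11.02 to 11.27). Over all 25354 probes, 202 were marked as low in this array and 78 to 156 in the other 4. Marked as high were 126 in this array and 54 to 186 in the other 4, the most in replicate 3. The cause was not tested.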

How the results depend on the processing

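The calls of Il18 and Il1r2 in CLP vs sham were kept in both sexes under all 12 alternatives with a test and whenever 1 of the 16 arrays was left out. Members called in males numbered 4 at an FDR of 5% (Il1r1 and Il1rn added), where 16% of all male probes were called, against 7.81% at 1%. With an array left out they numbered 2 to 3 in males and 2 to 2 in females. When landiolol was compared with CLP alone in males, 1 member (Il18) was called with normexp correction and 1 (Il18) with array weights, and 0 to 1 with an array left out. Of all male probes, 1.93% and 5.36% were called with these 2 settings, against 1.56% in the main fit. In females the count of members was 0 to 0. For CLP plus landiolol vs sham, the count was 2 to 3 in males and 2 to 2 in females with an array left out. With the row as a term it was 1 in females (Il18, with Il1r2 lost). Over all female probes, calls there fell from 5.25% to 0.0788% with the row as a term. The male Il1rn value against sham passed in 5 of 12 alternatives, in which 4.3% to 9.81% of all male probes were called, against 4.15% in the main fit. It also passed without sham replicate 2, CLP replicate 1, CLP replicate 5 or CLP plus landiolol replicate 5. Differences between the sexes were called for 0 to 0 members with any of the 32 arrays left out.

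Values within a slide have no test, so no counts of calls were made there. Of all values of the members, called or not, 60 of 960 changed sign with an array left out, 21 of 738 under other alternatives and 21 of 120 within a slide, and none of those that changed sign was a called value. No paired analysis was made, because each array was a separate rat and the design holds no pairs.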
